A study of Mus musculus with 64 samples.

Results

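The genes described are 9 that are widely used to tell dentate granule neurons from other cells of the hippocampus: Prox1, Calb1, Pcp4, Stxbp6, Dsp, C1ql2, C1ql3, Rasgrp1 and Plk5. They were chosen by symbol, all 9 were found among the 23313 genes of the deposited tables, and each was listed there as 1 transcript. Their values were taken from all 64 single cells of the series, and they were set beside Snap25, a synaptic SNARE protein made by neurons in general, and beside marker genes of myelin and of astrocytes.

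The cells were sorted for red fluorescence from microdissected dentate gyrus of Dcx-dsRed mice, in which the promoter of doublecortin (Dcx), a microtubule-binding protein of newborn neurons, drives the reporter dsRed. The mice were 6 to 7 weeks old, and each cell was captured on a microfluidic chip before its polyadenylated RNA was amplified and sequenced. All 64 cells form 1 group with no treatment, no stage and no animal named, so the cells are not biological replicates, and values over cells are descriptions of these cells. The series title names neuronal maturation as the question, and the labels call each cell an immature neuron.

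Granule neurons are the excitatory neurons of the dentate gyrus, where new ones are made throughout adult life, and their axons, the mossy fibres, contact pyramidal neurons of area CA3. Prox1 is the homeobox transcription factor that sets and keeps their fate and is present from the precursor onward, while the calcium buffer Calb1 (calbindin) appears late, as its relative Calb2 (calretinin) is lost. None of the genes is exclusive: Calb1 is also made by CA1 pyramidal neurons and some interneurons, Pcp4 by CA2 pyramidal neurons, Prox1 by some interneurons and cells of the oligodendrocyte lineage, and Dsp by epithelia and heart muscle.

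The values are TPM, transcript abundances scaled for transcript length and to the same total in every cell, and a gene was called detected in a cell at 1 TPM or more. Depth was estimated at 464932 to 4031422 reads per cell (median 1078470), with 21 deeper libraries from 1920576 reads upward and 43 shallower ones up to 1303664 reads. Depth followed the cell number, with the deeper libraries numbered 1 to 24 and the shallower 20 to 83, and 3535 to 7480 genes were detected per cell (median 5179). Clustering without the 9 genes gave 33 oligodendrocyte-like, 20 neuron-like and 11 astrocyte-like cells, named from marker lists, while the label is the same for all. Dcx itself was detected in 24 of the 64 cells, 6 of them neuron-like, 11 oligodendrocyte-like and 7 astrocyte-like. Snap25 was detected in every cell, at 2047 to 8717 TPM in the neuron-like cells (median 4648), 2.46 to 5118 TPM in the oligodendrocyte-like cells (median 1532) and 3.62 to 1781 TPM in the astrocyte-like cells (median 405). The neuron-like cells lay above every astrocyte-like cell and overlapped the upper oligodendrocyte-like cells. Snap25 is in the neuronal list used to name the clusters, so its high level in the neuron-like cells is not independent of that name. In 14 libraries (2 neuron-like and 12 oligodendrocyte-like) the marker score of a further cluster was as high as the 25th percentile of its own members. These are called libraries with a second programme, and results are also given without them. No marker of microglia other than P2ry12 was above 0 TPM in any cell (Aif1, Cx3cr1, Csf1r and C1qa were listed at 0).

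Of the 9 granule neuron genes, 5 were detected in over 50% of the sorted cells, and Dsp, C1ql2, Rasgrp1 and Plk5 in fewer. Each was detected in 20 to 50 cells (median 41), where the 9764 other genes detected in at least 10 cells had a median of 29 cells. A cell had a median of 6 of the 9 genes detected. All 20 neuron-like cells had 6 to 8 of them (median 7), the 33 oligodendrocyte-like cells had 1 to 9 (median 5), and the 11 astrocyte-like cells had 0 to 8 (median 3). Counts over all cells were spread towards the ends: 20 cells had 0 to 3 genes, 6 cells had 4 or 5, and 38 had 6 to 9. The oligodendrocyte-like cells held much of that spread, with 12 cells at 0 to 3 genes and 16 at 6 to 9. The 2 cells with all 9 genes, cells 69 and 72, were both oligodendrocyte-like, with Mbp (myelin basic protein) at 4245 and 4385 TPM and Snap25 at 3658 and 2748 TPM. At the other end, the astrocyte-like cell 81 had none of the 9 at 1 TPM or more, with Snap25 at 13.3 TPM. Without the 14 libraries with a second programme, the neuron-like cells still had a median of 7 genes (6 to 8) and the oligodendrocyte-like cells a median of 5 (1 to 9). Some oligodendrocyte-like libraries that were kept had high Snap25, cell 72 with all 9 genes among them. The libraries kept are thus not free of neuronal transcripts, whose part in these counts was not tested.

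**Figure D1:**
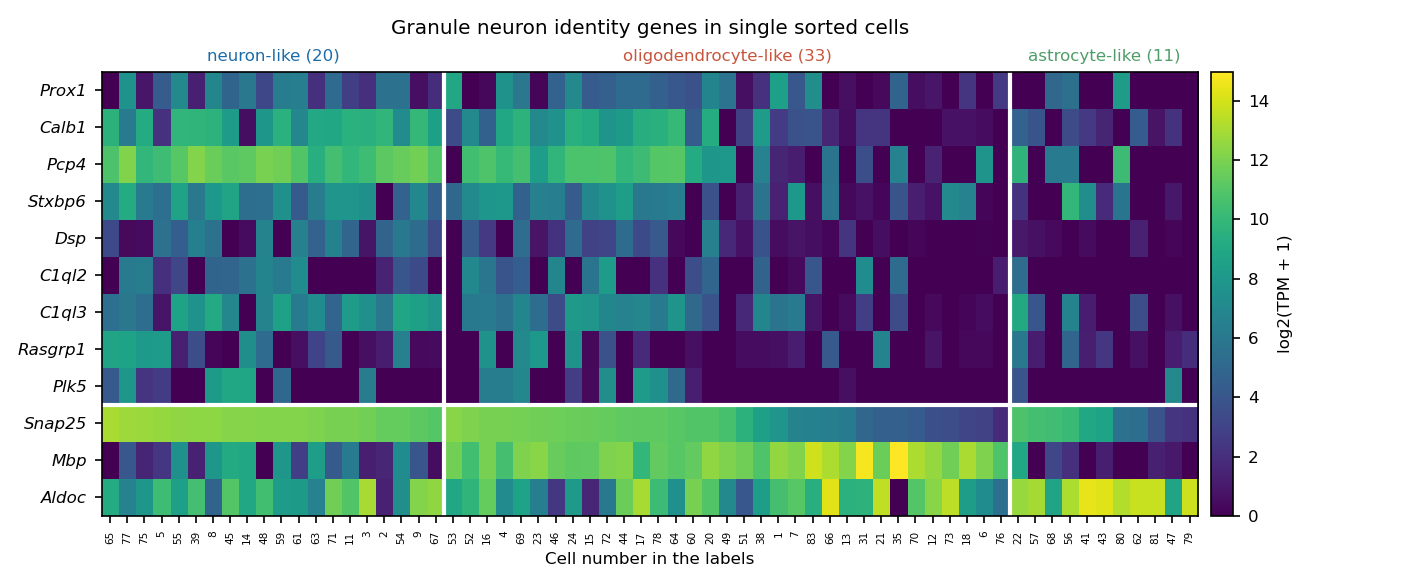
Level of the 9 granule neuron genes and of Snap25, Mbp and Aldoc (an astrocyte marker) in each of 64 cells, as log2(TPM + 1), with cells in columns by cluster and, within a cluster, from high to low Snap25. In the oligodendrocyte-like block the left side, where Snap25 is high, holds most of the bright squares of the 9 genes. Among the 20 neuron-like cells Pcp4 is bright throughout, whereas Dsp, Prox1, C1ql2, Rasgrp1 and Plk5 are patchy.

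In the order of median TPM over all cells, Pcp4 stood first at 888 TPM, followed by Stxbp6 (48.6 TPM), Calb1 (47.9 TPM), C1ql3 (42.04 TPM), Prox1 (10.3 TPM), Dsp (0.72 TPM), Rasgrp1 (0.55 TPM), and C1ql2 and Plk5 (0 TPM each). The interquartile ranges of neighbours in this order overlapped throughout, Stxbp6 (1.26 to 130 TPM), Calb1 (3.10 to 600 TPM) and C1ql3 (0.38 to 117 TPM) among them. Within the neuron-like cells the order was Pcp4, Calb1, C1ql3, Stxbp6, Dsp, Prox1, C1ql2, Rasgrp1 and Plk5. There the lowest Pcp4 value, 690 TPM, lay above the highest value of every other gene of the set except Calb1, whose highest value was 996 TPM. Without the 2 neuron-like libraries with a second programme, Prox1 (28.1 TPM) stood above Dsp (25.5 TPM) and Rasgrp1 (8.72 TPM) above C1ql2 (5.55 TPM).

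Prox1, the fate regulator, was detected in 41 of 64 cells (64.1%, exact 95% interval 51.1% to 75.7%, counting error only). It ranged from 0 to 200 TPM in the neuron-like cells (median 23.4 TPM, detected in 17 of 20), from 0 to 482 TPM in the oligodendrocyte-like cells (median 15.5 TPM, 21 of 33) and from 0 to 297 TPM in the astrocyte-like cells (median 0 TPM, 3 of 11). The 3 ranges overlapped, and the highest single values were not neuron-like. Cell 53, oligodendrocyte-like, had the highest Prox1 at 482 TPM with Snap25 at 5118 TPM and Pcp4 listed at 0. Cell 80, astrocyte-like, had Prox1 at 297 TPM, Pcp4 at 1212 TPM and Dcx at 61.2 TPM, with Snap25 at 47.3 TPM. By contrast, cell 65 had the highest Snap25 of all, 8717 TPM, and Prox1 at 0. Prox1 was also detected together with Sox10, a transcription factor of the oligodendrocyte lineage, in 21 of the 33 oligodendrocyte-like cells, with Sox10 alone in 10 and neither in 2, and their rho was -0.03 in that cluster and -0.08 over all cells. Leaving out the libraries with a second programme moved the oligodendrocyte-like median of Prox1 from 15.5 to 4.84 TPM, with 13 of 21 cells detected, and the neuron-like median to 28.1 TPM with 16 of 18.

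Dcx, the gene behind the sort, did not follow Prox1. Both were detected in 15 cells, Prox1 alone in 26, Dcx alone in 9 and neither in 14, with a Spearman's rho of 0.01 over the 64 cells. Calb1 and Dcx were likewise both detected in 15 cells (rho -0.16). Neurod1, a transcription factor that acts beside Prox1 in granule neuron differentiation, shared 32 cells with Prox1 (rho 0.26).

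Of the genes that bind or buffer calcium signals, Pcp4, a small protein that tunes calcium binding by calmodulin, had the highest median of the 9 genes, and Pcp4 and Calb1 were detected in 48 and 50 cells (45 and 41 at 10 TPM or more). Pcp4 was detected in all 20 neuron-like cells, at 690 to 4699 TPM (median 2203 TPM). It ranged from 0 to 2148 TPM in the 33 oligodendrocyte-like cells (median 210 TPM, 24 detected) and from 0 to 1212 TPM in the 11 astrocyte-like cells (median 0 TPM, 4 detected). The neuron-like cells were thus uniformly high, while the other clusters ran from 0 to levels within the neuron-like range. Without the libraries with a second programme the oligodendrocyte-like median was 98.0 TPM, with 14 of 21 cells detected. Pcp4 has a short transcript, of which 1 read is worth 1.23 to 12.4 TPM depending on the cell, so 1 TPM lies under 1 read; 44 of its 48 detected cells had 5 estimated reads or more.

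Calb1 was detected in 50 cells (78.1%, exact 95% interval 66.0% to 87.5%). It ranged from 0.46 to 996 TPM in the neuron-like cells (median 562 TPM), from 0 to 1023 TPM in the oligodendrocyte-like cells (median 13.7 TPM) and from 0 to 24.9 TPM in the astrocyte-like cells (median 3.56 TPM). All but 3 of the neuron-like cells were above 100 TPM, and no astrocyte-like cell was. Cells 5 and 14 stood apart among the neuron-like cells, with Calb1 at 3.46 and 0.46 TPM although Snap25 was at 6310 and 4768 TPM. The same 2 cells had C1ql3 at 0.78 and 0 TPM, and Rasgrp1 at 302 and 177 TPM. Calb2 was detected in 14 cells, 8 of them together with Calb1 (rho -0.27), and Pvalb, the third of these calcium buffers, was listed at 0 in every cell, which, taking 3 cells of 64 as the limit that a count of 0 allows, leaves room for a share of up to 4.69% of cells with Pvalb detected. Pcp4l1, the relative of Pcp4, was detected in 1 cell.

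**Figure D2:**
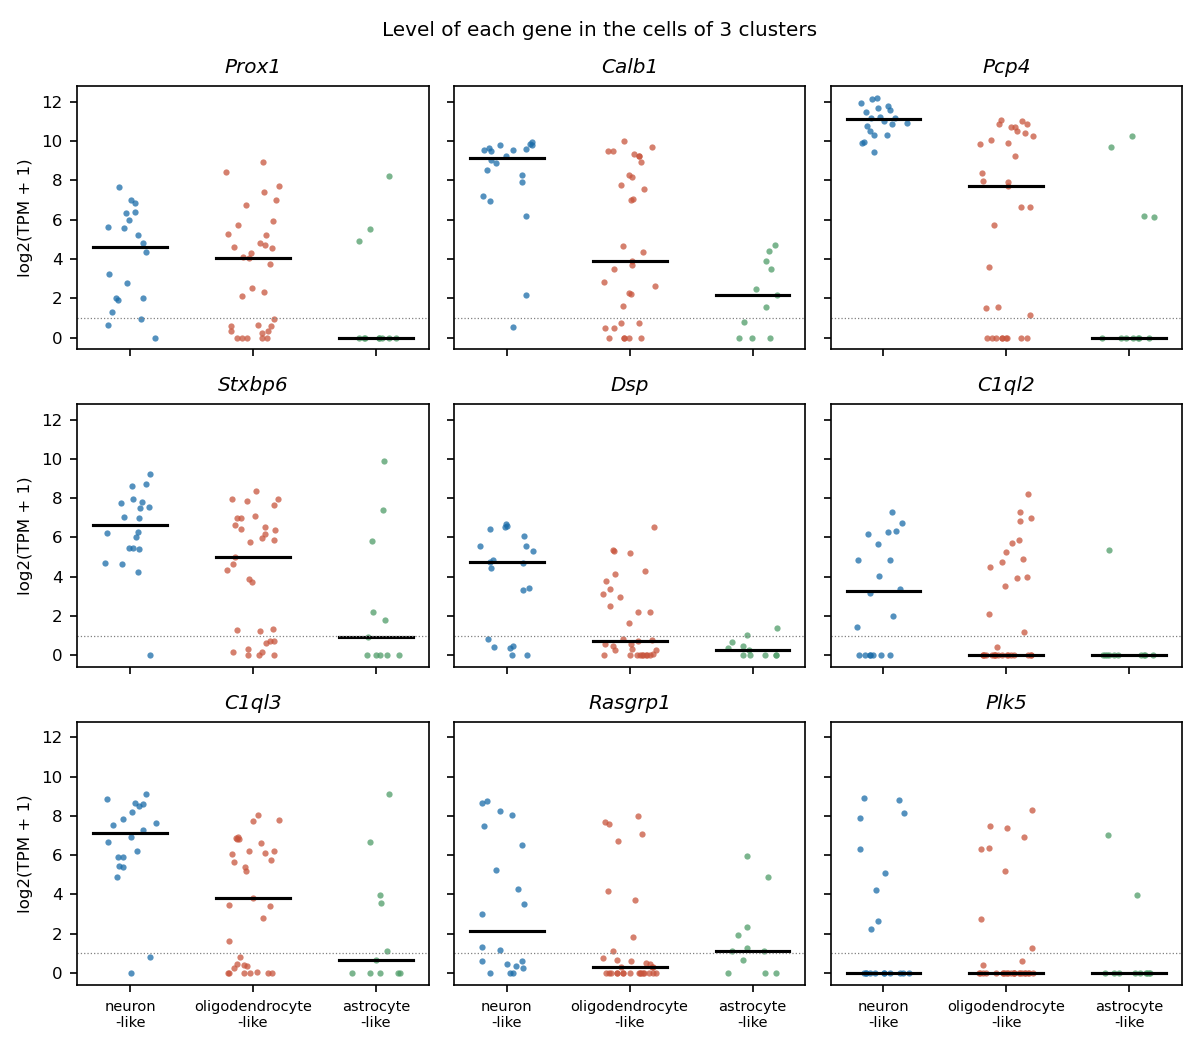
Level of each of the 9 genes as log2(TPM + 1) in the 20 neuron-like, 33 oligodendrocyte-like and 11 astrocyte-like cells; points are cells, black bars are medians and the dotted line is the detection limit of 1 TPM. Pcp4 and Calb1 have most neuron-like cells in a high band (medians 2203 and 562 TPM), whereas Plk5 has a median of 0 TPM in every cluster.

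C1ql2 and C1ql3 encode secreted C1q-domain proteins that granule neurons release at mossy fibre synapses, where they gather kainate receptors. C1ql3 was detected in 44 cells and C1ql2 in 29, with both in 25 cells and C1ql2 alone in 4. C1ql3 ranged from 0 to 557 TPM in the neuron-like cells (median 139 TPM, 18 detected), from 0 to 266 TPM in the oligodendrocyte-like cells (median 13.4 TPM, 21 detected) and from 0 to 549 TPM in the astrocyte-like cells (median 0.59 TPM, 5 detected). C1ql2 ranged from 0 to 154 TPM (median 8.68 TPM, 13 detected), 0 to 298 TPM (median 0 TPM, 15 detected) and 0 to 39.5 TPM (median 0 TPM, 1 detected) in the same clusters. Without the libraries with a second programme, the neuron-like median of C1ql2 was 5.55 TPM. The clusters overlapped for both genes, and the single astrocyte-like cell with C1ql2, cell 22, was also the one with the highest C1ql3 of its cluster and with 8 of the 9 genes detected. The other members of the family were nearly missing, with C1ql1 in 3 cells and C1ql4 listed at 0 in all. Of the family's known partners on the receiving side, Adgrb3 (listed as Bai3) was detected in 37 cells, Grik2 in 49 and Grik4 in 9. The level of C1ql3 is uncertain, because its annotated gene overlaps that of Pter, which lies opposite to it, by 1568 bases in RefSeq GRCm38. The strand setting of the counting is not given in the sources used here, so reads within the overlap cannot be assigned to either gene. Pter was detected in 50 cells and was the gene most like C1ql3, with a rho of 0.93 over the 64 cells. How much of the C1ql3 level such reads make up was not tested.

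Rasgrp1, an exchange factor that activates Ras in response to calcium and diacylglycerol, and Plk5, a brain-expressed member of the polo-like kinase family, were detected in the fewest cells, 28 and 20. The place of Rasgrp1 depends on the limit of 1 TPM, at which C1ql2 was detected in 29 cells. Above 0 TPM, Rasgrp1 was found in 42 cells, C1ql2 in 30 and Plk5 in 22. The median worth of 1 read was 0.40 TPM for Rasgrp1, 1.10 TPM for C1ql2 and 1.04 TPM for Plk5. Rasgrp1 ranged from 0 to 431 TPM in the neuron-like cells (median 4.20 TPM, 12 detected), 0 to 252 TPM in the oligodendrocyte-like cells (median 0.23 TPM, 9 detected) and 0 to 61.6 TPM in the astrocyte-like cells (median 1.17 TPM, 7 detected). Its astrocyte-like cells were mostly near the detection limit, and 2 of the 11 reached 10 TPM. Plk5 ranged from 0 to 485 TPM, 0 to 313 TPM and 0 to 131 TPM in these clusters, with 9, 9 and 2 cells detected. Without the libraries with a second programme, the neuron-like median of Rasgrp1 was 8.72 TPM, and Plk5 was detected in 3 of 21 oligodendrocyte-like cells. Relatives of Rasgrp1 were rarer still: Rasgrp2, Rasgrp3 and Rasgrp4 were detected in 3, 9 and 2 cells, and all 9 cells with Rasgrp3 were oligodendrocyte-like. Among the polo-like kinases, Plk2, an activity-regulated kinase of neurons, was detected in 47 cells, against 5, 12 and 4 for Plk1, Plk3 and Plk4.

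Stxbp6 (amisyn), which binds SNARE proteins and restrains vesicle fusion, was detected in 48 cells. Its levels were 0 to 596 TPM in the neuron-like cells (median 102 TPM, 19 detected), 0 to 326 TPM in the oligodendrocyte-like cells (median 30.8 TPM, 24 detected) and 0 to 963 TPM in the astrocyte-like cells (median 0.92 TPM, 5 detected). Its oligodendrocyte-like median was 14.0 TPM without the libraries with a second programme. The highest value, in the astrocyte-like cell 56, was not matched in any neuron-like cell. Among other genes that share the Stxbp symbol, which need not be related to it, Stxbp2 was detected in 62 cells, Stxbp3 (listed as Stxbp3a) in 40, Stxbp4 in 21, Stxbp5 in 31 and Stxbp5l in 48. Dsp (desmoplakin), which ties desmosomes to intermediate filaments, ranged from 0 to 102 TPM in the neuron-like cells (median 25.5 TPM, 14 detected), 0 to 90.8 TPM in the oligodendrocyte-like cells (median 0.65 TPM, 14 detected) and 0 to 1.58 TPM in the astrocyte-like cells (median 0.20 TPM, 2 detected). No astrocyte-like cell came near the neuron-like median. Dsp has the longest transcript of the set, of which 1 read is worth 0.0580 to 0.582 TPM, and 48 cells had a value above 0, so the count of 30 cells depends on the limit of 1 TPM. Of the other desmosome genes, Pkp1, Dsc3 and Evpl were listed at 0 in all cells, Dsc2 was detected in 1 cell, Dsg2 in 8 and Pkp2 in 10. Jup was detected in 29 cells, of which 19 were oligodendrocyte-like, and Pkp4 in 47.

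The sequence around the start of the transcript was available from RefSeq (GRCm38.p6) for 8 of the 9 genes, as windows of 250 bases before to 50 after the start (2 windows for Prox1). These windows were searched for the E-box CANNTG, the motif bound by Neurod1 and other basic helix-loop-helix factors of the granule lineage. An E-box was present in 8 of the 9 windows, against 72.3% of all 32851 promoter windows of the same length. The variant CAGATG was present in 1 member window, against 17.2% of all windows, the TATA box TATAAA in 1 (13.6%), CCAAT in 3 (37.4%) and the letters TGACG in 0 (20.8%). Motifs were searched on both strands, CAGATG matches are also CANNTG matches, and a match is a description of the letters only. The windows of Prox1 (upstream start), Pcp4, C1ql3 and Rasgrp1 are shown because they are the fate regulator, the genes that followed Snap25 and Calb1 closely, and the gene that did so least. They read 5′ to 3′ along the gene's strand, with E-boxes in capitals.
Prox1, chr1:190170778-190171077, minus strand: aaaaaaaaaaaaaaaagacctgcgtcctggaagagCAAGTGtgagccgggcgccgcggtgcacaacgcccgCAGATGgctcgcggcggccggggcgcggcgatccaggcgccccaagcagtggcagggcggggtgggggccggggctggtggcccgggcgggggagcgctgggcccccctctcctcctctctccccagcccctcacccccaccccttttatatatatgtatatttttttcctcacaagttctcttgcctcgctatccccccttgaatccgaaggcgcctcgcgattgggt
Pcp4, chr16:96467356-96467655, plus strand: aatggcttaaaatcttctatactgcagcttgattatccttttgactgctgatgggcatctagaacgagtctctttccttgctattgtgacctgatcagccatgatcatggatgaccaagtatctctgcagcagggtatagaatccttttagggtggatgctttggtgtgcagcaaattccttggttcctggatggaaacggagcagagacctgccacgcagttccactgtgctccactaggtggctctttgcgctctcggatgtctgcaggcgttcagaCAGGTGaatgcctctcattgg
C1ql3, chr2:13010815-13011114, minus strand: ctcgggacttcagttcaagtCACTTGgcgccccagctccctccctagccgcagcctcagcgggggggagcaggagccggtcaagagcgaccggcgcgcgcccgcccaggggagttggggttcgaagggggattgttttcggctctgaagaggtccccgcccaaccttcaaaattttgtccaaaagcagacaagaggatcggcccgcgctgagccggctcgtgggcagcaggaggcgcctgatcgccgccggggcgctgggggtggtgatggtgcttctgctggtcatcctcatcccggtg
Rasgrp1, chr2:117342828-117343127, minus strand: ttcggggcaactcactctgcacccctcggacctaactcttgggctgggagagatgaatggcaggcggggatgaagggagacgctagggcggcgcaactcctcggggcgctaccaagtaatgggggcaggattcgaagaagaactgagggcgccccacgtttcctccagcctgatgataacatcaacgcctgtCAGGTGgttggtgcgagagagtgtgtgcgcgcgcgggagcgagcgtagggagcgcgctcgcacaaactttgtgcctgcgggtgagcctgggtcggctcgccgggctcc

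The upstream Prox1 window was the one with CAGATG and with TATAAA among the member windows. Its TATAAA match lies on the strand opposite to the gene and reads TTTATA as printed. This window held 2 E-boxes, whereas Pcp4, C1ql3 and Rasgrp1 held 1 E-box each. GC content was 64.3% for this Prox1 window, 48.7% for Pcp4, 66.3% for C1ql3 and 63.7% for Rasgrp1, where the median of all promoter windows was 52.7% (interquartile range 45.7% to 61.7%). Pcp4 was the only one of the 9 member windows with a GC content under that median.

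Over the 64 cells, all 9 genes tended to be higher where Snap25 was higher. Their Spearman's rho with it was 0.76 for Pcp4, 0.67 for Calb1, 0.56 for Stxbp6, 0.55 for C1ql3, 0.52 for Dsp, 0.43 for Plk5, 0.41 for C1ql2, 0.40 for Prox1 and 0.34 for Rasgrp1. Pcp4 held rank 22 and Calb1 rank 101 among the 9772 genes detected in at least 10 cells, whereas Prox1 held rank 784 and Rasgrp1 rank 1183. All 9 were at a rho of 0.3 or more, which 15.7% of the 9772 genes reached, and none was at -0.3 or less, as 3.67% of genes were. The median rho of the 9 genes was 0.52, against 0.08 for all genes. The cells share a capture method, and the number of genes detected moved with the set as well (rho 0.53 with the mean score of the 9 genes, which averages z-scores of log2(TPM + 1)), and its part in the result was not tested. That score had a rho of 0.81 with Snap25 over all cells, 0.44 in the neuron-like, 0.78 in the oligodendrocyte-like and 0.52 in the astrocyte-like cells. With the mean score of 10 neuronal markers, Snap25 among them, the rho was 0.69 over all cells but -0.04 in the neuron-like cells. It was 0.65 in the oligodendrocyte-like and 0.62 in the astrocyte-like cells.

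The relation to glial genes was weaker. The median rho of the 9 genes was -0.22 with the myelin score and -0.19 with the astrocyte score, against -0.02 and -0.05 for all genes. With the myelin score, 2 genes were at -0.3 or less, Pcp4 (-0.39) and Calb1 (-0.33), where 5.23% of genes were, and none at 0.3 or more, where 7.96% of genes were. With the astrocyte score, 2 genes were at -0.3 or less, Prox1 (-0.40) and C1ql2 (-0.34), where 3.67% of genes were, and none at 0.3 or more, where 4.03% were. The genes lowest against myelin and those lowest against the astrocyte genes were thus not the same: Prox1 had a rho of 0.04 and C1ql2 of 0.01 with the myelin score, and Pcp4 and Calb1 had -0.26 and -0.19 with the astrocyte score. These relations differed between the depth classes, without a test. The rho of the 9-gene score with the myelin score was -0.26 over all cells, -0.53 in the 21 deeper libraries and -0.15 in the 43 shallower ones, and with the astrocyte score -0.32, -0.15 and -0.41.

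Among the 20 neuron-like cells alone, which have little spread in Snap25, Rasgrp1 (rho 0.53), Plk5 (0.49) and Stxbp6 (0.38) followed Snap25, and Pcp4 (0.07) and Calb1 (-0.13) did not. C1ql3 had a rho of -0.37 there. Prox1 had a rho of 0.54 with the myelin score and -0.51 with the astrocyte score within these cells. Summed TPM of the 10 myelin markers, which like the astrocyte markers also served to name the clusters, was 0.86 to 5788 in the neuron-like cells (median 130). It was 17784 to 132427 in the oligodendrocyte-like cells. That of the 10 astrocyte markers was 185 to 13070 in the neuron-like cells (median 2086), against 2040 to 40732 in the astrocyte-like cells. Whether RNA of other cells had a part in these values was not tested.

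**Figure D3:**
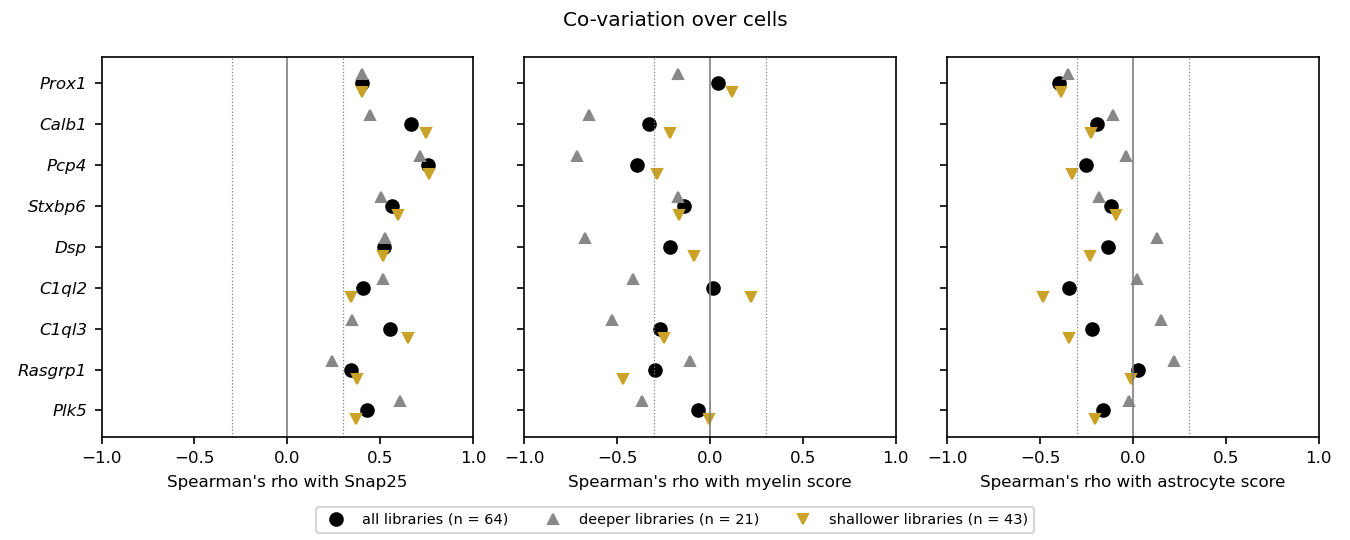
Spearman's rho of each of the 9 genes with Snap25, with the myelin score and with the astrocyte score, over all 64 libraries (circles), the 21 deeper ones (upward triangles) and the 43 shallower ones (downward triangles); dotted lines mark -0.3 and 0.3. All circles are right of 0.3 for Snap25 and left of 0.3 for both glial scores, and in the deeper libraries Rasgrp1 is at 0.24 with Snap25.

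Among themselves the 9 genes form 36 pairs, with a median rho of 0.28 over the 64 cells, against 0.03 for all pairs of genes detected in at least 10 cells. A rho above 0 was found for 35 pairs, and 17 pairs (47.2%) were at 0.3 or more, where 2.80% of all pairs were. Calb1 and C1ql3 were the closest pair (rho 0.83), both detected in 43 cells, C1ql3 without Calb1 in 1 cell and Calb1 without C1ql3 in 7, and this pair and the others with C1ql3 carry the uncertainty from Pter. Pcp4 with C1ql3 (0.70), Calb1 with Pcp4 (0.69), Calb1 with Dsp (0.61) and Dsp with C1ql3 (0.56) came next. Prox1 and Rasgrp1 were the pair below 0 (-0.12). Rasgrp1 had the lowest median rho with the other 8 genes (0.18) and Pcp4 the highest (0.49). In the depth classes the median over pairs was 0.26 (deeper) and 0.32 (shallower).

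The pairs did not move together to the same degree within clusters. Their median rho was 0.06 in the 20 neuron-like cells, 0.30 in the 33 oligodendrocyte-like cells and 0.34 in the 11 astrocyte-like cells, and 4, 18 and 19 of the 36 pairs were at 0.3 or more. In the neuron-like cells Calb1 and C1ql3 remained the closest pair (0.50), followed by Prox1 with C1ql2 (0.48), and the lowest pairs were Dsp with Plk5 (-0.66), C1ql3 with Rasgrp1 (-0.64) and Calb1 with Rasgrp1 (-0.41). The levels of Rasgrp1 and Calb1 in cells 5 and 14, given above, are part of the last value. In the oligodendrocyte-like cells Calb1 with C1ql3 (0.84), Pcp4 with C1ql3 (0.80) and Calb1 with Pcp4 (0.75) were highest. With 20 and 11 cells these values are imprecise, and differences between clusters were not tested.

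**Figure D4:**
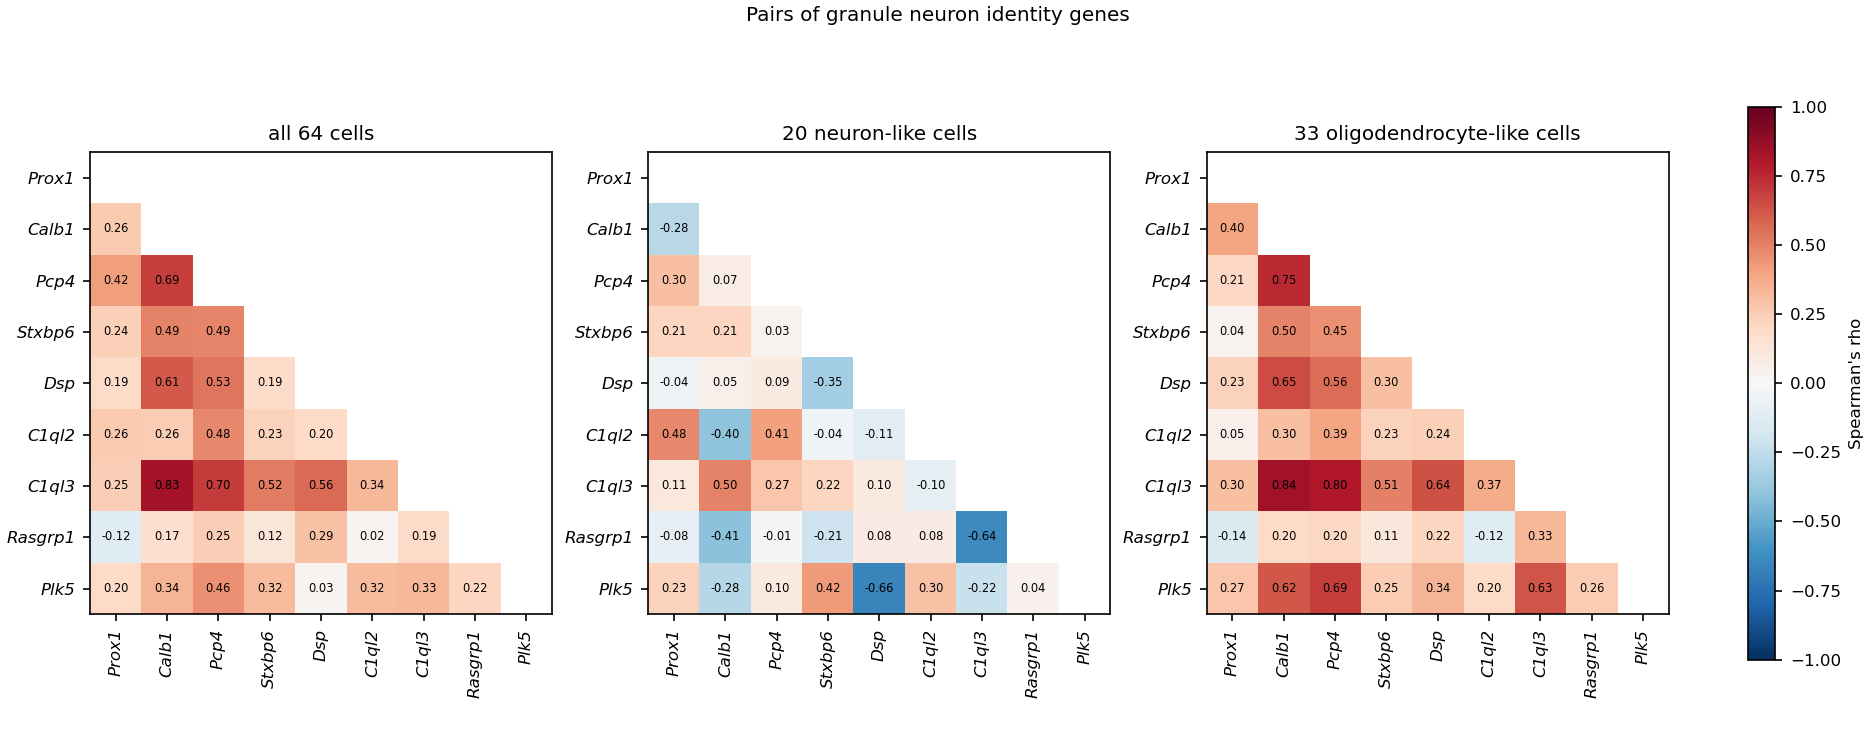
Spearman's rho of each of the 36 pairs of genes over all 64 cells, the 20 neuron-like cells and the 33 oligodendrocyte-like cells. Red squares are above 0 and blue squares below 0; nearly all pairs are red over all cells (median 0.28), and the neuron-like panel is mixed (median 0.06).

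The genes outside the set whose levels were most like its mean score over the 64 cells were Enc1 (rho 0.82), Chrm1 (0.82), Olfm1 (0.81), Snap25 (0.81), Camk2b (0.81), Ncdn (0.79), Phyhip (0.79) and Calm2 (0.78), among 9764 genes detected in at least 10 cells. Chrm1 encodes the M1 muscarinic receptor, Camk2b the beta subunit of calcium/calmodulin-dependent kinase II, and Calm2 calmodulin, the partner of Pcp4. The lowest were Cmtm5 (-0.62), Tsc22d4 (-0.58), Cd81 (-0.56) and Ftl1 (-0.55), the last a ferritin light chain. Single genes had different neighbours. Calb1 was most like Pter (0.82), Hpca (0.80) and Lrrtm4 (0.78), Pcp4 was most like Calm2 (0.83), Enc1 (0.82) and Olfm1 (0.81), and Dsp was most like Hpca (0.71), Adcy1 (0.69) and Rapgef5 (0.66). Hpca is hippocalcin, a neuronal calcium sensor, and Adcy1 is a calcium-stimulated adenylyl cyclase. Stxbp6 was most like Akap5 (0.69), Rasgrf1 (0.63) and Map2k1 (0.61). After Pter, C1ql3 was most like Ptk2b (0.78) and Chrm1 (0.76). Prox1 reached no more than 0.54 with any gene (Nrsn1 and Eef1a2, then Synpr at 0.53), and Rasgrp1 no more than 0.50 (Pelp1, with Syne1 at 0.47). C1ql2 was most like Rtn1 (0.58), Isca1 (0.57) and Sntb2 (0.56), and Plk5 like Ccsap (0.56), Serp2 (0.54) and Rasl10a (0.52).

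Other genes of the granule lineage partly followed the set. Of 16 such genes listed, 10 were detected in at least 50% of cells and 15 in at least 10 cells, and 9 of these 15 (60.0%) had a rho of 0.3 or more with the mean score of the set, where 15.9% of the 9764 genes did. Their median was 0.32, against 0.09 for all genes. Ncald, a calcium sensor (0.75), Bcl11b, a zinc-finger transcription factor needed for granule neuron maturation (0.74), and Fam163b (0.71) were highest. Bcl11b was detected in 18 of 20 neuron-like, 17 of 33 oligodendrocyte-like and 3 of 11 astrocyte-like cells, with medians of 36.8, 1.74 and 0.40 TPM. Id2, an inhibitor of basic helix-loop-helix factors, was lowest (-0.30), with medians of 419, 241 and 2821 TPM in the same clusters.

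Of 8 genes of immature neurons, 5 were detected in at least 10 cells. Their median rho with the mean score of the set was -0.15, against 0.09 for all genes, and none was at 0.3 or more, where 15.9% of genes were, so that 0 of 5 is near the share over all genes: Sox11 (0.17), Stmn1 (-0.12), Dcx (-0.15), Calb2 (-0.17) and Tubb2b (-0.28). Markers of other hippocampal neurons detected in at least 10 cells numbered 5 of 10 for pyramidal neurons, 3 of 5 for mossy cells, 1 of 9 for inhibitory neurons and 2 of 4 for Cajal-Retzius cells, where 9764 of the 23313 genes were. Of the pyramidal neuron genes, Cpne4 (rho 0.73) and Dkk3 (-0.33) were at the ends of the range. Cpne4 was detected in 19 of the 20 neuron-like cells (median 38.7 TPM), and Dkk3 in all 11 astrocyte-like cells (median 37.4 TPM). Of 5 mossy cell genes, Calcrl was detected in 29 cells (rho -0.18), Calb2 in 14 (-0.17) and Ajap1 in 12 (0.20), while Drd2 and Gal were listed at 0 in every cell. Among 9 genes of inhibitory neurons, Gad1, a GABA-synthesising enzyme, was detected in 33 cells (rho 0.21), 24 of them with Prox1, while Gad2 was detected in 6 cells, Vip and Dlx1 in 2 each, Npy in 1, and Slc32a1, Sst, Pvalb and Lhx6 in 0 at 1 TPM or more (Slc32a1 reached 0.78 TPM and Lhx6 0.18 TPM). Reln, a marker of Cajal-Retzius cells that some interneurons also make, was detected in 16 cells (rho 0.10) and Ndnf in 13 (rho 0.07).

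**Figure D5:**
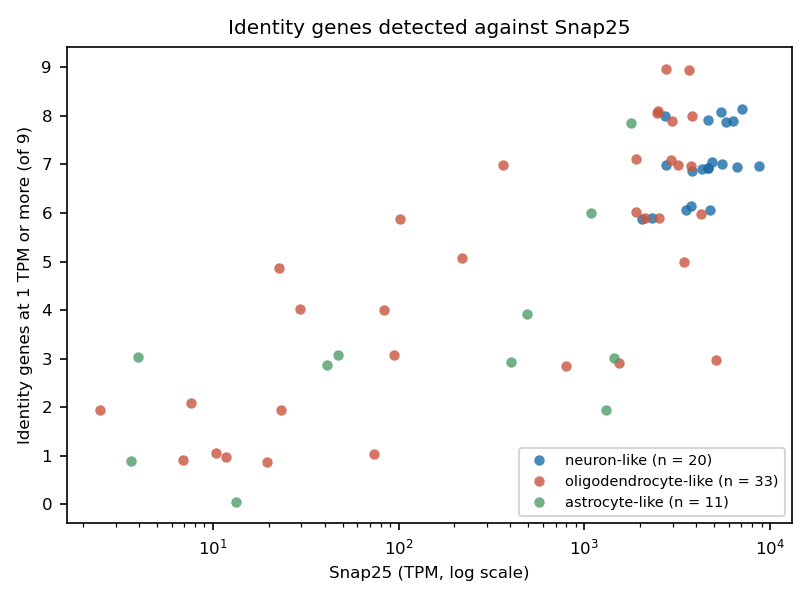
Number of the 9 genes detected at 1 TPM or more (vertical, shifted slightly so that points can be seen apart) against Snap25 in TPM on a log axis (horizontal), by cluster. The 20 neuron-like cells sit at 6 to 8 genes and Snap25 of 2047 TPM or more, and the oligodendrocyte-like cells run from 1 gene at low Snap25 to 9 genes at 2748 and 3658 TPM.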

How the data were processed

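Single-cell RNA sequencing of 64 sorted cells was used. The deposited values were read as TPM, although the header names RSEM expected counts: every cell's values total 999999 to 1000001, and 0.899% of those above 0 are whole. The submitters' processing notes name Bowtie2, RSEM and mm9, with no versions. For this unit no count test was used.

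TPM was added up per symbol, without 1037 transcripts that carry none (0.172% to 0.735% of the total). The reference tables are of GRCm38 and served for names, lengths, overlaps and promoter windows only. Depth came from the low values: TPM multiplied by effective length (200-base fragments, transcripts of at least 1000 bases) clusters at 1 read, and 71.2% to 80.3% of values near it lay within 10% of 1 read, against 20% for an even spread. It was tested on simulated data. Library pairs had Pearson correlations of 0.399 to 0.674, so none was taken for a repeat.

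Detection meant 1 TPM or more, with exact Clopper-Pearson 95% intervals. Scores are mean z-scores of log2(TPM + 1), with a pseudocount of 1. Spearman's rho is given without a p-value, since the labels name 1 group and no animals. Cells were clustered by Ward linkage on 10 principal components of the 1000 most variable genes without the 9 genes. Of 2 to 6 clusters, 3 had the highest mean silhouette (0.262), with 0.246 to 0.251 for the other numbers. A cluster was named by the marker list with the largest mean log2 difference between its cells and all others. At least 3 markers of that list had to be detected in 50% of its cells. The neuron-like cluster had 8 of 10 neuronal and also 8 of 10 astrocyte markers detected in at least 50% of its cells. No doublet caller was run. The genes, lists and rules were chosen with earlier results of these data known. Named genes are the 9, the genes at the ends of each list (up to 4), the 8 highest and 4 lowest by rho with the score and the 3 highest per gene; cells and partner genes named beside these were chosen after their values were seen. Some genes that the rule takes are not reported here. Python 3.11.15 with numpy 2.4.6, pandas 2.3.3, scipy 1.17.1 and scikit-learn 1.9.0 was used.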

Additional observations from a re-analysis of the deposited data

How the results depend on the processing

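Limits of detection, pseudocounts, filters, cluster settings, depth classes and the scaling of TPM were varied. Single genes of the set, or the libraries with a second programme, were also left out. No rho of the mean score and no median rho of the pairs changed its sign. Counts could only stay or move under the rule used, so a reversal was not possible for them. Of 75 values other than single genes' detection counts, 70 stayed within 0.1 in rho or 1.5 times in count. The 70 include the gene filters, which could not change how many of the 9 genes reached 0.3 with Snap25. The clustering with 500 genes, which gave no neuron-like cluster, is not among the 75. The values that moved further concern the mean score of the 9 genes. Its rho with neuronal genes was 0.69 with the neuronal marker list in place of Snap25, where it was 0.81 with Snap25. That list itself holds Snap25, so the value of 0.69 is not independent of it. Its rho with the myelin score of -0.26 was -0.53 in the deeper libraries, -0.15 in the shallower ones and -0.13 with Mbp alone, and that with the astrocyte score of -0.32 was -0.15 in the deeper libraries; the cause was not tested. Leaving out each of the 9 genes in turn gave 0.763 to 0.819 with Snap25, -0.316 to -0.217 with the myelin score and -0.352 to -0.269 with the astrocyte score. Of 36 detection counts of single genes, 33 stayed within 1.5 times; Dsp was found in 48 cells above 0 TPM and 19 at 10 TPM, and Rasgrp1 in 18 at 10 TPM. At a bound of 0.4, 8 of the 9 genes followed Snap25 (8.17% of all genes), and 8 did in the deeper libraries at 0.3 (28.4%). With 500 clustering genes 2 clusters formed and none was neuron-like, with 43 cells keeping their name; with 2000 genes 60 did, and with the 9 genes kept all 64. Detection at 5 reads and the results without libraries of a second programme were chosen after seeing the data. Plk5 was detected in 42.9% of the deeper and 25.6% of the shallower libraries, and Pcp4 in 85.7% and 69.8%. No paired analysis was possible because there is 1 group of cells.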
